A study of Mus musculus with 24 samples.

Results

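The nuclear genes of the oxidative phosphorylation system were followed across 24 RNA sequencing libraries of mouse eye tissue. Members were all protein-coding genes outside the mitochondrial genome whose symbols begin as those of the Nduf, Uqcr, Cox4 to Cox8 and Atp5 subunit families, together with Sdha, Sdhb, Sdhc and Sdhd. This rule found 88 of the 56748 genes listed: 39 of complex I, 4 of complex II, 8 of complex III, 19 of complex IV and 18 of complex V. Cyc1, Cycs and Ndufab1 act in the same system but have other kinds of symbol, and were counted with the neighbouring lists. The libraries came from PRDM13-OE mice, which carried 1 copy of a cassette at Rosa26 in which a ubiquitous EF-1α promoter drives the dox-dependent activator of a human PRDM13 transgene, and from wildtype littermates on C57BL/6J. The genotypes were untreated or had received dox (2 mg/ml, with 10% sucrose, in drinking water for 72 hours from P28). From each of the 12 mice both the neural retina and the eye cup, which holds the retinal pigment epithelium (RPE), choroid and sclera, were sequenced, giving 8 groups of 3. The groups were PRDM13-OE with dox, wildtype with dox, untreated PRDM13-OE and untreated wildtype in each tissue. The labels give no treatment for the untreated groups. Dox and sucrose therefore cannot be told apart wherever mice with dox are set against untreated ones. The human transgene transcript was not analysed here, and the table's symbols are older ones, such as Atp5b for Atp5f1b and Atp5k for Atp5me.

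Oxidative phosphorylation makes ATP in the inner mitochondrial membrane. Complex I takes electrons from NADH and complex II from succinate, complex III passes them from ubiquinol to cytochrome c, and complex IV passes them on to oxygen. Complexes I, III and IV pump protons as they do so, and complex V, the ATP synthase, uses the returning protons to make ATP. Most subunits are encoded in the nucleus and the remainder in the mitochondrial genome. Photoreceptors pack mitochondria into their inner segments, the RPE is also rich in mitochondria, and some complex IV subunits exist as a widely expressed and a tissue-restricted form, such as the pairs Cox6a1 and Cox6a2, Cox7a2 and Cox7a1, and Cox8a and Cox8b.

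Each library held between 15825059 and 24908314 counts on genes. The summed level of 8 rod markers was between 51543 and 75926 CPM in the retinas, and that of 6 RPE markers between 6234 and 51566 CPM in the eye cups, so each tissue expressed its defining markers. Eye cups also held rod markers at 2960 to 46893 CPM and skeletal muscle markers at 251 to 2867 CPM, and the retinas held RPE markers at 51 to 339 CPM. Among the retinas, 2 of the 3 wildtype retinas with dox had 4240 and 10172 CPM of lens markers, while all others were between 4 and 742 CPM. Less RNA per cell and fewer cells of a type cannot be told apart in these bulk samples. The labels do not tell whether the reads kept their strand, and 40 of the 88 members overlap another listed gene.

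Nearly all members were detected in both tissues. No count was seen in any of the 24 libraries for Cox8c or for a second identifier of Atp5o, which allows up to 3 counts a library, and Ndufb11b had 1 count and Cox7b2 had 10 counts over the 24. Per gene length, the ATP synthase catalytic subunit Atp5b stood first in the retina at a median FPKM of 345 (326 to 360 over 12 retinas), followed by Cox8a at 331 and Atp5a1 at 281. In the eye cup, Cox8a (801 FPKM, 512 to 1216 over 12 eye cups), Cox6a1 (550) and Cox8b (549) came first and Atp5b was ninth at 264 FPKM. By the median FPKM of their members, complex I stood at 31.9 in the retina and 63.7 in the eye cup, and complex IV at 32.8 and 101.

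**Figure D1:**
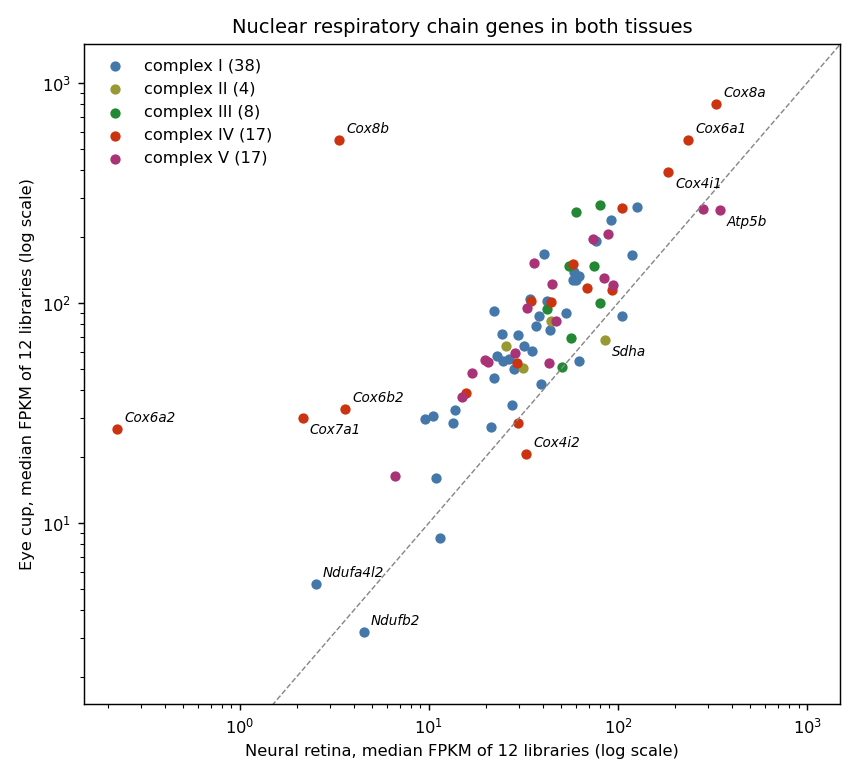
Median FPKM over 12 neural retinas (x axis, log scale) and over 12 eye cups (y axis, log scale) for each gene with a median above 0 in both tissues, coloured by complex, with equality dashed. Most genes lie above the line, Cox8b lies at 3.36 FPKM in the retina and 549 FPKM in the eye cup, and Atp5b and Sdha lie below it.

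Retina and eye cup of the same mouse were set against each other in edgeR (quasi-likelihood test) with the mouse as a block, and the CPM values of this comparison were scaled over all 24 libraries, while those of all other passages were scaled within a tissue and cannot be set beside them. Of 85 members tested, 73 were lower and 8 higher in the retina at an adjusted p under 0.05, against 33% of all 26034 genes lower and 32.5% higher. The median log2-fold change over the members was −1.12, and over all genes 0.04. In the 3 untreated wildtype mice alone 70 of 84 members were lower and 2 higher (Ndufs1 and Cox4i2), beside 6395 lower and 5643 higher of 21979 genes, so Sdha, Atp5b, Ndufv1 and Ndufb2 did not pass as higher there. The direction was the same in all 12 mice for 69 of the 73 lower members and for 6 of the 8 higher ones. With a log2-fold change past 1 as well, 47 were lower, against 23.4% of all genes, and 1 was higher, against 17.5%. The 1 higher was Cox7b2, which had 10 counts over the 24 libraries. The members of each complex mostly lay below 0, with medians of −0.997 for complex I, −0.76 for complex II, −1.001 for complex III, −1.22 for complex IV and −1.17 for complex V.

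Subunits that carry redox centres or catalytic sites lay on both sides. In complex I, the iron-sulfur subunits Ndufs8, Ndufs7 and Ndufv2 were lower in the retina, at −1.20, −0.85 and −0.73, and were picked after their values were seen. Ndufs1, another iron-sulfur subunit of complex I, was at 96.9 ± 5.07 CPM in the retina and 68.9 ± 9.03 CPM in the eye cup (SD, n = 12 each), which is 0.48 on the log2 scale (SE 0.08, edgeR adjusted p = 3.81e-05). Sdha, the flavoprotein subunit of succinate dehydrogenase, was at 363 ± 12.6 compared with 277 ± 45.7 CPM (log2-fold change 0.39, edgeR adjusted p = 0.000584), and its partner Sdhb lay the other way, at −1.21 (edgeR adjusted p = 8.36e-08). Sdhc and Sdhd, which anchor complex II in the membrane, were lower as well, at −0.71 and −0.81. Atp5b was at 1501 ± 35.7 CPM in the retina and 1102 ± 145 CPM in the eye cup (0.44, edgeR adjusted p = 0.000334). Ndufv1, Ndufb2, Cox4i2 and Cox7b2 were also among the higher members, with Ndufv1 at 0.29 and Ndufb2 at 0.51. The reads of Ndufs1 may include those of Eef1b2 and the reads of Ndufb2 those of Braf, both of which overlap on the opposite strand with more counts. Cox7b2 had at most 3 counts in any library, so no fold change is given for it. In complex III the structural core protein Uqcrc1 and the iron-sulfur protein Uqcrfs1 were only slightly lower in the retina, at −0.29 and −0.28 (edgeR adjusted p = 0.00205 and 0.000693), and the accessory subunits Cox4i1 and Cox5b of complex IV, whose redox centres are encoded in the mitochondrial genome, were at −1.12 and −1.09. Atp5a1, Cox5a, Ndufa10 and Uqcrc2 did not pass, at log2-fold changes of 0.10, 0.11, −0.13 and −0.03.

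The largest falls in the retina were in the tissue-restricted complex IV subunits. Cox8b was at 1.14 ± 0.637 CPM in the retina and 182 ± 93.7 CPM in the eye cup (SD, n = 12 each), which is −7.28 on the log2 scale (SE 0.40, edgeR adjusted p = 9.85e-10). Cox6a2 was at 0.231 ± 0.304 and 22.6 ± 17.1 CPM (−6.60, SE 0.40), and 9 of the 12 retinas had at most 4 counts of it. Cox7a1 was at 1.19 ± 0.246 and 20.9 ± 12.9 CPM (−3.91, SE 0.27), and Cox6b2 at 4.24 ± 0.913 and 36.3 ± 16.9 CPM (−2.98, SE 0.26). Their widely expressed partners differed less, with Cox8a at −1.24, Cox6a1 at −1.20, Cox7a2 at −0.73 and Cox6b1 at −1.30. Cox4i2, the alternative form of Cox4i1, was the exception to the direction, at 26.7 ± 2.19 in the retina and 18.4 ± 8.81 CPM in the eye cup (0.65, edgeR adjusted p = 0.0047), and was higher in the retina in 11 of 12 mice. The highest count of Cox6a2 in a retina, 20, was in untreated PRDM13-OE retina 1, which also had the most skeletal muscle markers of the retinas, at 61.4 CPM. Uqcr11 of complex III and Atp5e of complex V completed the 6 largest falls, at −2.06 and −1.99. Atp5g1, Atp5g2 and Atp5g3, which encode the same mature c subunit of the ATP synthase rotor, were at −1.24, −0.76 and −0.57. Ndufa4 and its paralog Ndufa4l2 were at −0.44 and −1.15, and the reads of Ndufa4l2 may include those of Shmt2 on the opposite strand.

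Across the 12 eye cups, which are 12 mice, the tissue-restricted subunits moved with markers of different tissues measured in the same libraries. Cox8b ran from 60.2 to 258 CPM in PRDM13-OE eye cups with dox, from 68.9 to 131 in wildtype with dox, from 175 to 340 in untreated PRDM13-OE and from 187 to 285 in untreated wildtype. Wildtype eye cups with dox lay below both untreated groups, and those of PRDM13-OE with dox overlapped every other group. The log2 level of Cox8b had a Pearson's r of 0.944 (permutation p = 4e-05, Benjamini-Hochberg adjusted p = 0.000144) and a Spearman's rho of 0.902 (permutation p = 0.00014, adjusted 0.000576) with the log2 sum of the RPE markers. Without the 2 eye cups farthest from the median r was 0.909, and r of the deviations from the 4 group means was 0.947. With the RPE markers, the widely expressed Cox8a gave 0.958 (permutation p = 4e-05, adjusted 0.000144), so following them was not particular to restricted subunits. Cox6b2 gave 0.932 with them (permutation p = 2e-05, adjusted 0.00012), which is the smallest p 100000 resamples can give for that measure. Cox6a2 and Cox7a1 instead followed the 10 skeletal muscle markers, with r of 0.971 and 0.947 (permutation p = 2e-05 for each, adjusted 0.00012), rho of 0.972 and 0.951, and 0.952 and 0.927 without the 2 farthest eye cups. Cox6a2 had an r of 0.288 with the RPE markers (permutation p = 0.353, adjusted 0.374). The 18 relations of 6 genes with 3 marker lists were computed, and Cox4i2 gave 0.785 with the rod markers (permutation p = 0.0018, adjusted 0.0054). Cox7a1 also moved against the rod markers, with an r of −0.798 (permutation p = 0.00218, adjusted 0.00561) and a rho of −0.832.

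**Figure D2:**
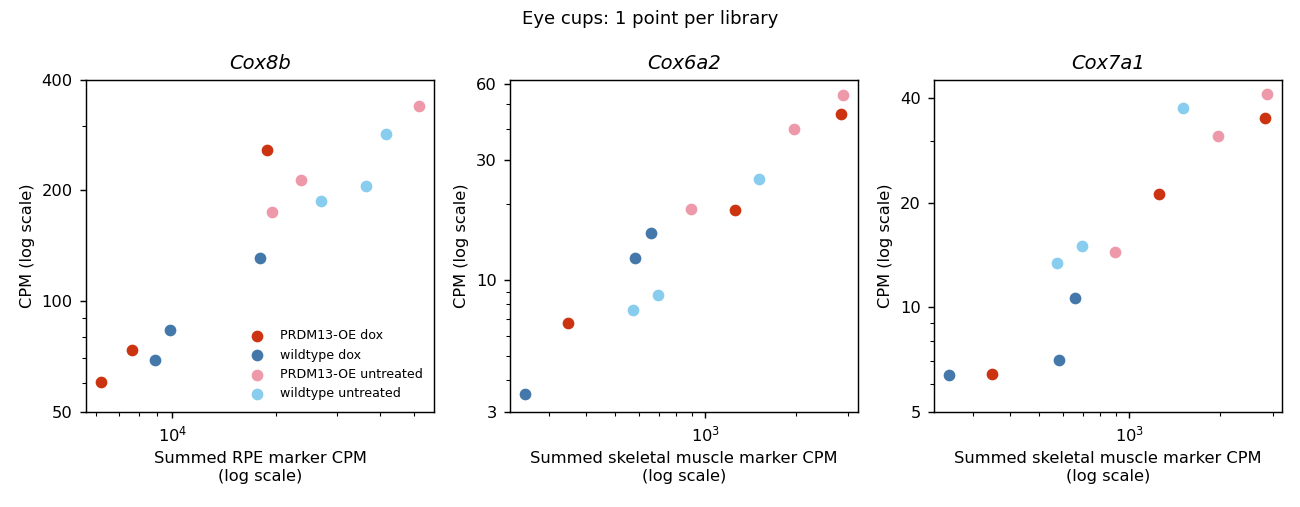
CPM of Cox8b against the summed RPE marker CPM, and of Cox6a2 and Cox7a1 against the summed skeletal muscle marker CPM, 1 point for each of 12 eye cups and both axes on a log scale, coloured by group. In each panel the points rise together, with r of 0.944, 0.971 and 0.947 on the log2 values.

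Promoters of the widely expressed Cox6a1 and the restricted Cox8b and Cox7a1 are shown side by side to set a widely expressed subunit beside tissue-restricted ones. RefSeq's promoter table (GRCm38.p6) held 69 of the members' symbols, and the part of each 250-base window that lies outside annotated exons and the listed gene is shown with GRCm39 positions from an exact match, in lower case with motif matches in capitals.
Cox6a1, chr5:115487051-115487159, minus strand: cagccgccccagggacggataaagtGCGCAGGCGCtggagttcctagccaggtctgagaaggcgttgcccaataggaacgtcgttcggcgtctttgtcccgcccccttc
Cox8b, chr7:140480360-140480609, minus strand: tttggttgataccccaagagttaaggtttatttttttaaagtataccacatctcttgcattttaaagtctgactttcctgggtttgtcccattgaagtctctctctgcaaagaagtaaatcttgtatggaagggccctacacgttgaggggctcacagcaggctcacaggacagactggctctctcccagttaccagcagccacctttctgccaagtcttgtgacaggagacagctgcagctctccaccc
Cox7a1, chr7:29883346-29883568, plus strand: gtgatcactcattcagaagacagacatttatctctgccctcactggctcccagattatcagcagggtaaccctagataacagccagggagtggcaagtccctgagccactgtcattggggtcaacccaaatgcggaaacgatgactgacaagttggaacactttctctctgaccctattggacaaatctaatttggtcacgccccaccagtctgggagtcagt
The capitals in Cox6a1 mark the NRF1 motif, the site of a regulator of respiratory chain genes, in which 1 base is free, and none of the 4 motifs searched matched the regions of Cox8b and Cox7a1. The windows of their widely expressed partners Cox8a and Cox7a2 held none of the 4 either. Both strands were searched for this motif and for CCGGAAG (ETS factors, GABPA), AAGATGGC (YY1) and AAGGTCA (the estrogen-related receptors, ERR), and the end of the ETS motif can overlap the start of the YY1 motif. The whole window of Cox6a1 held 2 NRF1 matches and an ETS match. Over the 250 bases before the start, 13 of 69 members (18.8%) held the NRF1 letters and 12 (17.4%) the ETS letters, against 4.23% and 7.83% of all 27025 genes, while YY1 letters were in 1 member and 1.83% of genes and ERR letters in 5 members (7.25%) and 4.7% of genes. Cox8b had 1 CpG in its window, the lowest of the 69, and Cox7a1 4, against a median of 14 over the members and 6 over all genes. The widely expressed Ndufc2 also had 4 and Uqcr10 and Cox7b had 5, while the restricted Cox6b2 had 8, so a low CpG count was not particular to the restricted subunits. A match is a description of the letters, not a site of binding.

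Gene length moved with the difference between tissues. Among the 83 members with at least 100 counts a library on average, the correlation across genes of log2 length with log2-fold change was 0.50, against 0.28 over 12088 protein-coding genes, and genes are not independent replicates. Members under 1000 bases had a median log2-fold change of −1.22 where all genes of that length had −1.30. Between 1000 and 2000 bases the medians were −1.14 for members and −0.63 for all genes, between 2000 and 4000 bases −0.71 and −0.16, and above 4000 bases −0.27 and 0.37. In these bins the members above 1000 bases stood below other genes of their length, and the shortest ones did not. The part of gene length in these differences was not tested.

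**Figure D3:**
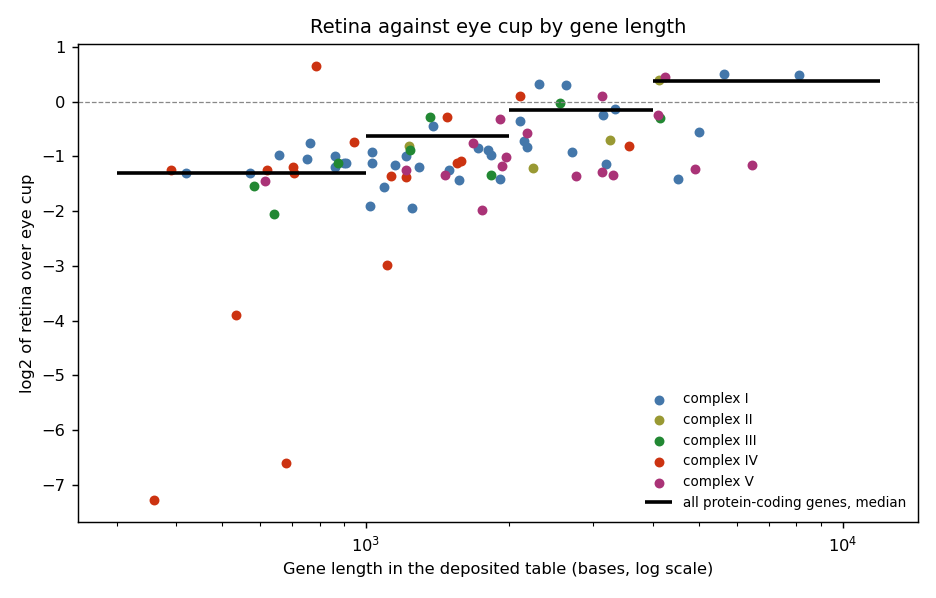
Log2-fold change of retina over eye cup (y axis) against the gene length of the deposited table (x axis, log scale) for members with at least 100 counts a library on average, coloured by complex. Black lines are the medians of all protein-coding genes in each length range, which go from −1.30 under 1000 bases to 0.37 over 4000 bases.

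In the neural retina, 9 members were higher and 0 lower in PRDM13-OE mice with dox than in wildtype mice with dox, all with small changes. These were Ndufv1, Ndufb4, Ndufa4 and Ndufa6, named as complex I subunits although Ndufa4 is now placed in complex IV, Uqcrq and Uqcrb of complex III, and Atp5k, Atp5mpl and Atp5g2 of the ATP synthase. Of 84 members tested, 10.7% passed higher, against 5.01% of all 20560 genes higher and 7.51% lower. No member had a log2-fold change past 1 as well, against 0.905% of genes higher and 1.5% lower. The median log2-fold change was 0.07 over the members and 0.01 over all genes, with 61 members above 0 and 23 below, where 50.8% of all genes were above and 49.2% below. At an unadjusted p under 0.05, 26 members were higher (12.4% of all genes) and 1 was lower (14.2% of all genes), and DESeq2 called 11 members higher and 0 lower, beside 966 higher and 1527 lower of all 20560 genes. With library size alone as the scaling 31 members were higher and 0 lower, beside 2175 higher and 1007 lower of all genes, whose median moved from 0.01 to 0.09. The summed level of all members was between 9742 and 10021.5 CPM in PRDM13-OE and between 9355 and 9515 CPM in wildtype retinas with dox. Untreated PRDM13-OE retinas, at 9283 to 9961 CPM, overlapped both, and untreated wildtype retinas were at 9125 to 9448 CPM. The 3 PRDM13-OE retinas lay above the 3 wildtype retinas for 31 of 84 members (16.4% of all genes) and below for 4 (15.4% of all genes).

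Ndufv1, the NADH-oxidising flavoprotein of complex I (chromosome 19), was at 228.5, 220.4 and 224.5 CPM in the PRDM13-OE retinas with dox and at 168.8, 170.5 and 172.4 CPM in the wildtype ones. In the untreated groups it was at 180.7, 163.5 and 181.3 CPM in PRDM13-OE and 181.9, 182.2 and 174.6 CPM in wildtype. Only the PRDM13-OE retinas with dox stood above 200 CPM, and they did not overlap with any other group. The log2-fold change against wildtype with dox was 0.39 (SE 0.05, edgeR adjusted p = 0.000246). Ndufb4, an accessory subunit of complex I, was at 60.4, 59.2 and 59.5 CPM compared with 47.1, 46.6 and 46.2 CPM (0.35, SE 0.05, edgeR adjusted p = 0.0012), and the untreated PRDM13-OE retinas were at 53.8, 47.1 and 57.1 CPM. Atp5k, a membrane subunit of the ATP synthase, was at 30.4, 29.4 and 28.9 CPM compared with 23.6, 17.7 and 20.4 CPM (0.52, SE 0.10, edgeR adjusted p = 0.00428). In Atp5k too the 3 PRDM13-OE retinas with dox lay above every retina of the other groups.

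The other 6 lay between 0.19 and 0.25 on the log2 scale, with edgeR adjusted p between 0.0239 and 0.0377. Uqcrq and Uqcrb are small accessory subunits of complex III. Uqcrq was at 120, 120 and 119 CPM in PRDM13-OE with dox and 107, 104 and 102 CPM in wildtype with dox, and Uqcrb at 44.2, 48.1 and 42.4 compared with 39.3, 35.3 and 38.0 CPM. Ndufa4 was at 193, 204 and 203 compared with 178, 166 and 176 CPM, and Ndufa6, an accessory subunit of complex I, at 51.7, 48.2 and 49.2 compared with 43.2, 40.7 and 42.6 CPM. Atp5mpl, a small membrane subunit of the ATP synthase, was at 66.5, 65.3 and 68.6 compared with 58.9, 54.4 and 57.7 CPM, and Atp5g2 at 93.9, 91.0 and 94.1 compared with 82.0, 76.9 and 82.1 CPM. In all 6 the groups with dox did not overlap, and untreated PRDM13-OE retina 3 lay within or above the range of PRDM13-OE with dox. Under 14 alternatives Ndufv1 and Ndufb4 passed in all 14, Atp5k in 13 and these 6 in between 5 and 9.

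Ndufb4 may share reads with its copy Ndufb4c, which had 680 counts over all libraries. The upstream regions of Ndufv1 and Ndufb4 are shown because they are the members whose calls held under the most alternatives, from the same table and in the same form.
Ndufv1, chr19:4062815-4063005, minus strand: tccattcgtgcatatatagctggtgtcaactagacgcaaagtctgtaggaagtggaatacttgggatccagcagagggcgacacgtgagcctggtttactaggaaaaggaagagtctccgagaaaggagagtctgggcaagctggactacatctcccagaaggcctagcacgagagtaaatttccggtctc
Ndufb4, chr16:37474816-37474980, minus strand: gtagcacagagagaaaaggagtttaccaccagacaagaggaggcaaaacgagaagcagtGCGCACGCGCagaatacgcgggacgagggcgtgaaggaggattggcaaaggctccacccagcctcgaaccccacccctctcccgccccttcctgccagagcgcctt
The Ndufb4 region held 1 NRF1 match, its whole 250-base window 3 and an ERR match, and the Ndufv1 window held none of the 4 motifs.

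**Figure D4:**
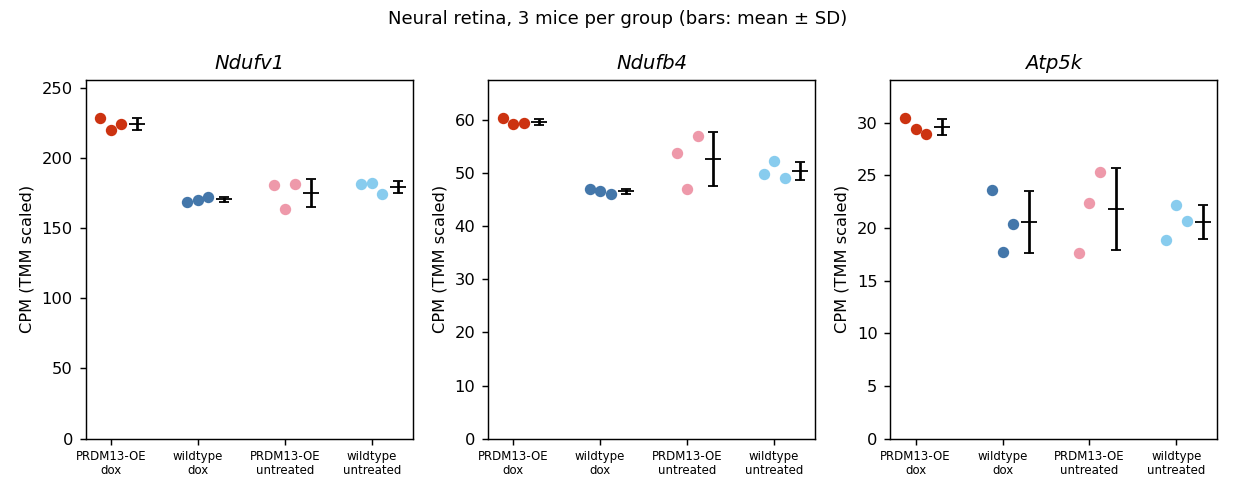
CPM of Ndufv1, Ndufb4 and Atp5k in each of 12 neural retinas by group (colours), with the mean and SD of the 3 mice beside the points. Ndufv1 lies between 220.4 and 228.5 CPM in PRDM13-OE with dox and between 163.5 and 182.2 CPM in all other groups.

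The retinas with dox also differed in other ways that moved with these values. The rod marker sum was 51543 to 57896 CPM in PRDM13-OE and 69452 to 72255 CPM in wildtype retinas with dox, and the cone marker sum 678 to 750 and 1176 to 1206 CPM. Bipolar cell markers summed to 879 to 976 and 1134 to 1199 CPM, and red blood cell markers to 0.709 to 1.18 and 31.2 to 77.8 CPM, with no overlap in any of these. RPE markers did not overlap either, at 90.5 to 114 CPM in PRDM13-OE and 130 to 169 CPM in wildtype retinas with dox. The wildtype retinas with dox carried the lens transcripts given above. Fitted over all 12 retinas, 5 members were higher, beside 761 of 22538 genes higher and 1159 lower. With a lens covariate in that fit 2 members were higher (Ndufv1 and Ndufb4), beside 183 genes higher and 401 lower. Without the 2 wildtype retinas with lens transcripts 4 members were higher (Atp5d, Ndufb4, Ndufv1 and Atp5k), beside 709 of 19470 genes higher and 1231 lower. That fit holds 1 wildtype retina, which is assumed to vary like the 3 PRDM13-OE retinas, so it has no replicate check of the wildtype level. Leaving out 1 retina at a time gave 3 to 8 higher. Among the members with redox centres or catalytic sites none other than Ndufv1 passed, with Sdha at −0.06 and Atp5b at 0.02. Uqcrc1 and Cox4i1 were at 0.04 and 0.10. Members under 1000 bases had a median log2-fold change of 0.09 and all genes of that length 0.08, and between 1000 and 2000 bases the medians were 0.10 and 0.03. Between 2000 and 4000 bases they were 0.07 and 0.0004, and over 4000 bases 0.003 and −0.05. The correlation across genes of log2 length with log2-fold change was 0.05 over members and 0.007 over all genes. The tissue-restricted Cox8b was at 0.827, 1.32 and 0.322 CPM in PRDM13-OE and 2.30, 1.72 and 1.53 CPM in wildtype with dox (log2-fold change −1.17, edgeR adjusted p = 0.0835), with 6 to 40 counts a library. The parts of cell makeup, RPE transcripts, blood and gene length in these differences were not tested.

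**Figure D5:**
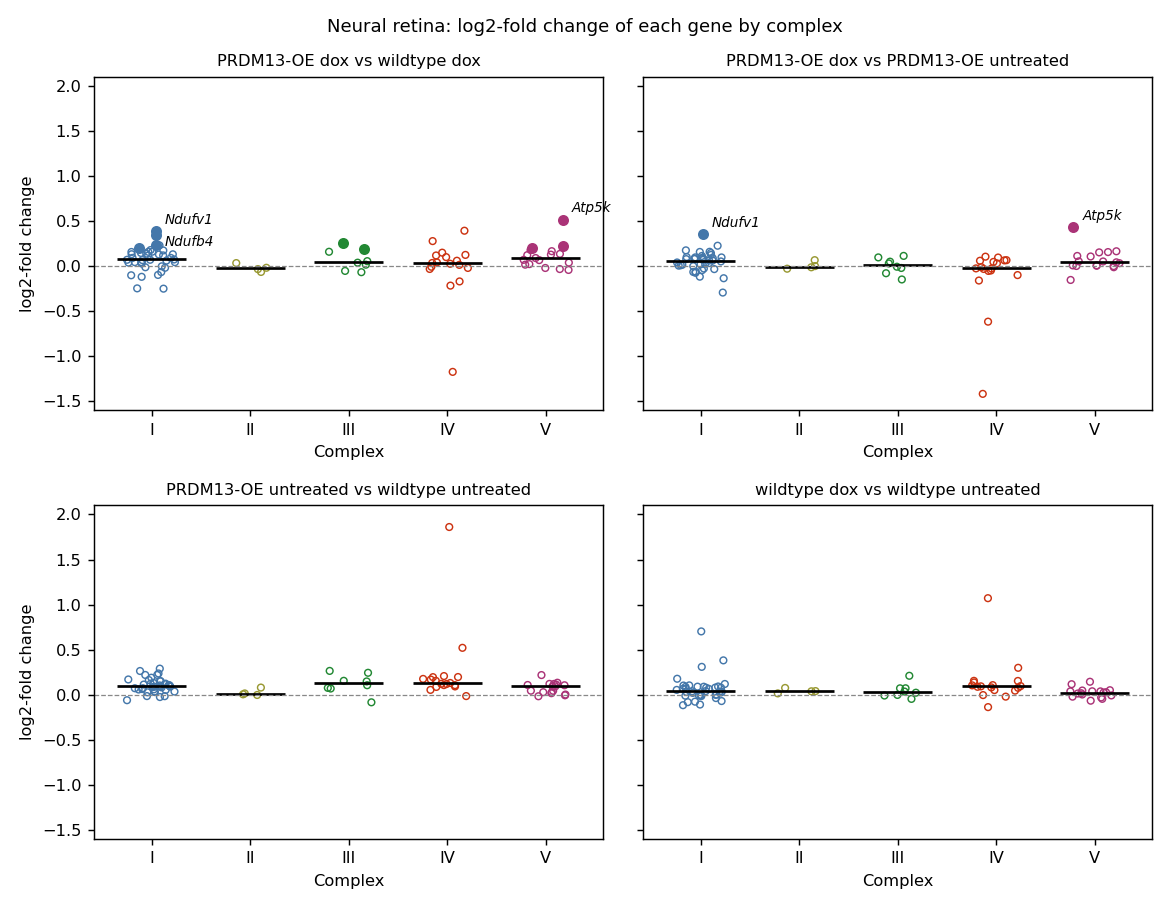
Log2-fold change of each member in the neural retina (y axis) by complex (x axis) in 4 comparisons, with filled points at an adjusted p under 0.05 and bars at the median of each complex. Filled points appear for 9 members between PRDM13-OE and wildtype with dox and for 2 between PRDM13-OE with and without dox.

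Of the other retina comparisons, dox against untreated in PRDM13-OE called Ndufv1 (0.35, SE 0.06, edgeR adjusted p = 0.00265) and Atp5k (0.44, SE 0.11, edgeR adjusted p = 0.0466) higher and no member lower, against 2.04% of 20603 genes higher and 2.96% lower. Leaving out any single retina other than untreated PRDM13-OE retina 3 ended the call of Atp5k (edgeR adjusted p between 0.0746 and 0.172). Dox in wildtype mice gave 0 calls either way (edgeR adjusted p of at least 0.303, with 5 members at an unadjusted p under 0.05, all higher), against 4.69% of genes higher and 4.63% lower, while 0.00485% of genes passed higher, and DESeq2 called 0 members. Untreated PRDM13-OE against untreated wildtype retinas gave 0 calls (edgeR adjusted p of at least 0.995), with 10 of 84 at an unadjusted p under 0.05, all higher, against 2.03% of 20668 genes higher and 1.73% lower, while 0.00484% of genes passed higher, and DESeq2 called 0 members. There 75 members (49.8% of all genes) were above 0, the median log2-fold change was 0.10 over the members and near 0 over all genes, and without untreated PRDM13-OE retina 3 the median was 0.045. Gene length moved with this too, with medians of 0.12 for members and 0.11 for all genes under 1000 bases, and of 0.10 and 0.07 between 1000 and 2000 bases. Between 2000 and 4000 bases they were 0.04 and 0.02, and over 4000 bases 0.08 and −0.02. Ndufv1 was the only member whose response to dox passed the test of a difference between genotypes (0.43, SE 0.08, edgeR adjusted p = 0.00315), against 1.19% of 22538 genes higher and 1.83% lower. Untreated PRDM13-OE retinas held rod markers at 69205 to 75926, cone markers at 1248 to 1286 and bipolar cell markers at 1027 to 1175 CPM. Their red blood cell markers were at 28.3 to 64.5 CPM, and all these sums lay above those of PRDM13-OE with dox. The part of cell makeup and blood in these calls was not tested. The retina comparisons share libraries with each other.

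Neighbouring genes of the system were read in the comparison of PRDM13-OE with wildtype retinas with dox. Of the 13 subunits of the mitochondrial genome, 4 were higher and 0 lower in PRDM13-OE with dox (5.01% of all genes higher and 7.51% lower), with mt-Co2 at 0.90, mt-Nd4l at 0.59 and mt-Co3 at 0.50 (edgeR adjusted p between 0.0254 and 0.0469). Among 46 of 48 assembly factors tested, 1 was higher, Coa3 at 0.20, and 1 lower, Ndufaf5 at −0.34, a smaller share than of all genes in each direction. Cyc1, the cytochrome c1 of complex III, was higher at 0.18. Of 17 genes of pyruvate dehydrogenase and the citric acid cycle, Pdha1 was higher at 0.35 (edgeR adjusted p = 0.00206), and its response to dox also differed between genotypes (0.46, edgeR adjusted p = 0.00598). Of 17 regulators, Ppargc1b, a coactivator of respiratory genes, was lower at −0.55, Pprc1 at −0.35 and the nuclear receptor Esrrg at −0.31, and 1 was higher. Between tissues, all 13 mitochondrially encoded subunits were lower in the retina, with a median log2-fold change of −1.90, while 10 of 17 regulators were higher there and 3 lower, against 32.5% of all genes higher and 33% lower.

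In the eye cups no member passed with edgeR in any of the 5 comparisons, and between wildtype eye cups with and without dox 0 of all 21799 genes passed in either direction. Wildtype eye cups with dox lay below untreated wildtype ones for 75 of the 84 members (52.5% of all genes), with a median log2-fold change of −0.65 against −0.05 over all genes, and the smallest edgeR adjusted p was 0.0673. At an unadjusted p under 0.05 there were 60 members, all lower, against 14.3% of all 21799 genes lower and 15.6% higher. Across these 6 eye cups, 60 members did not overlap between the groups and were lower, against 16.3% of genes. By complex, 29 of 38 members of complex I, 1 of 4 of complex II, 5 of 8 of complex III, 13 of 17 of complex IV and 12 of 17 of complex V were lower at that unadjusted p. Atp5md, a small subunit of the ATP synthase, was at 72.7, 67.7 and 83.2 CPM with dox and 128, 146 and 152 CPM without (log2-fold change −0.95). Subunits with redox centres or catalytic sites lay on both sides of 0, with Sdha at 0.27, Ndufs1 at 0.27 and Atp5b at 0.22 among the 9 members above it, and Sdhb at −0.65, Ndufs8 at −0.71, Ndufv2 at −0.61 and Ndufs7 at −0.53. The accessory complex IV subunits Cox5b and Cox4i1 were at −0.68 and −0.59. Of the 13 mitochondrially encoded subunits, 9 were lower at an unadjusted p under 0.05, with a median of −1.08.

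The number of members that passed in this comparison turned on the method. DESeq2 called 52 members lower, beside 1732 lower and 2307 higher of all 21799 genes. Without a count filter 34 members were lower, beside 678 lower and 926 higher of 29063 genes, and with library size alone 10, beside 205 lower and 1143 higher of 21799 genes. Leaving out wildtype eye cup 3 with dox gave 29 members lower, beside 881 of 21199 genes lower and 517 higher, and leaving out untreated wildtype eye cup 1 gave 33, beside 871 of 21164 genes lower and 1982 higher. In a fit over all 12 eye cups the median was −0.63, with 55 members lower at an unadjusted p under 0.05, and with the rod marker sum as a covariate in that fit it was −0.38, with 11. The rod marker sums of the wildtype eye cups were 46893, 35848 and 24107 CPM with dox and 23577, 2960 and 11870 CPM without, and the RPE marker sums 8909, 9845 and 17875 CPM with dox and 26920, 36218 and 41507 CPM without. Gene length moved with the same comparison. Members under 1000 bases had a median log2-fold change of −0.76 and all genes of that length −0.66, and members over 4000 bases −0.20 and all such genes 0.17. The parts of tissue makeup and gene length in these differences were not tested.

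PRDM13-OE against wildtype eye cups with dox lay the other way for 78 of 84 members (54.2% of all genes above 0), with a median log2-fold change of 0.42 and 0.05 over all genes. No member passed with edgeR (adjusted p of at least 0.597), 18 were higher at an unadjusted p under 0.05, against 4.61% of 21758 genes higher and 3.62% lower, and 0 were lower, while 0.0046% of genes passed higher and 0.0138% lower. The 18 became 2 without wildtype eye cup 2 with dox, 5 without wildtype eye cup 1 or PRDM13-OE eye cup 2 with dox, and 4 with the replicate number as a block. They became 25 without PRDM13-OE eye cup 1 or 3 with dox and 20 without wildtype eye cup 3 with dox. The median was 0.21 without PRDM13-OE eye cup 2 and 0.54 without wildtype eye cup 3, both with dox. In the fit over all 12 eye cups it went from 0.39 to 0.19 with the rod marker sum as a covariate. The members at that p went from 15 to 5 in that fit. DESeq2 called Ndufa12 higher, beside 59 genes higher and 60 lower. Without PRDM13-OE eye cup 3 with dox edgeR called 4 members higher (Ndufb1, Atp5e, Ndufa12 and Cox7a1), beside 741 of 21237 genes higher and 1468 lower.

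Tissue markers and gene length moved with this comparison too. Rod marker sums were 5266 to 36378 CPM in PRDM13-OE and 24107 to 46893 CPM in wildtype eye cups with dox. In the same order, bipolar cell sums were 367 to 623 and 835 to 953 CPM, and red blood cell sums 12.4 to 14.3 and 238 to 559 CPM. Lens marker sums were 5.61 to 297 and 536 to 2713 CPM. Members under 1000 bases had a median log2-fold change of 0.46 and all genes of that length 0.49, and members over 4000 bases 0.18 and all such genes −0.11. The parts of these in the differences were not tested. Ndufa12, a complex I accessory subunit, was at 27.9, 82.7 and 64.0 CPM in PRDM13-OE and 19.9, 18.6 and 21.1 CPM in wildtype eye cups with dox (log2-fold change 1.58). Its processed pseudogene Ndufa12-ps was at 27.9, 30.1 and 23.3 CPM in the former and 36.9, 34.8 and 37.8 CPM in the latter, and the counts of the pair may be shared between them. In untreated eye cups Ndufa12 was at 27.2 to 67.6 CPM in wildtype and 36.8 to 53.2 CPM in PRDM13-OE. The wildtype eye cups with dox thus lay below all other groups. With the counts of the pair summed, the largest log2-fold change of any member was 1.44 between the genotypes with dox, and 0 members passed. This comparison and the preceding one share the wildtype libraries with dox. Untreated PRDM13-OE against untreated wildtype eye cups and PRDM13-OE eye cups with against without dox gave 0 calls each with edgeR and with DESeq2, with median log2-fold changes of −0.06 and −0.18. Single libraries turned both medians, to 0.06 without untreated wildtype eye cup 3 in the former, and to 0.03 without untreated PRDM13-OE eye cup 3 in the latter, where leaving out PRDM13-OE eye cup 2 with dox gave −0.36. At an unadjusted p under 0.05, 1 member was higher in the former (Cox6a2, against 0.954% of genes higher and 0.917% lower) and 0 in the latter (1.1% and 3.04% of genes, with 0.0139% passing lower). The interaction of genotype and dox in the eye cups gave 0 calls, with 2 members at an unadjusted p under 0.05, both higher, against 3.16% of 23837 genes higher and 3.24% lower, and DESeq2 also called 0. The median of the interaction was 0.44 over the members and 0.02 over all genes, and it was 0.45 and 0.49 among those under 1000 bases. Between 1000 and 2000 bases the medians were 0.48 and 0.38, between 2000 and 4000 bases 0.37 and 0.14, and over 4000 bases 0.21 and −0.17. Without untreated PRDM13-OE eye cup 3 there were 21 members at that p, all higher, beside 1146 of 23579 genes higher, and still 0 calls.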

How the data were processed

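RNA from 12 neural retinas and 12 eye cups of the same mice was sequenced, with 3 libraries in each of 8 groups. The authors deposited read counts per gene, not normalized, and FPKM values per gene length, whose library denominators were between 0.797 and 1.16 times the total counts. Per the labels, CASAVA and HISAT2 were named in the processing notes, without versions, and the build was GRCm39, while the counter and its strand setting were not given in the sources used here and the labels describe both a directional and a non-directional library. The deposited table also holds the authors' log2 fold changes, p-values and adjusted p-values for 12 comparisons, which were not used.

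The counts were scaled with TMM factors in edgeR 4.0.16 (R 4.3.3) and given as CPM, over all 24 libraries for the comparison of tissues and within each tissue otherwise. Genes with at least 10 counts over the compared libraries were tested with edgeR's quasi-likelihood test, with robust fitting off, with Benjamini-Hochberg adjustment across every gene tested and a threshold of 0.05. Retina and eye cup were compared with the mouse as a block, and within a tissue no block was used, because the deviations of same-numbered mice correlated above 0.1 in 1 of 12 pairs in retinas (−0.222 to 0.172) and 3 of 12 in eye cups (−0.541 to 0.643). Members named with values were those past a log2-fold change of 1 (the 6 largest rises and 6 largest falls where over 12 were), the 3 largest rises and falls past the threshold, a list of catalytic and other conserved subunits and the paralogous isoforms, and of neighbouring lists the 3 largest changes. Named genes outside this rule, such as Ndufa12, Atp5md, Atp5d, other iron-sulfur subunits of complex I and the other members past the threshold in the retina, were chosen after their values were seen. The values of 1 member are not reported here by name. The members, lists and tests were chosen with earlier results of these data known. Alternatives used DESeq2 1.42.0, library size alone, no filter, robust fitting, other sets of libraries and covariates for lens or rod markers. Another summed the counts of Ndufa12 and its pseudogene. The alternatives were partly chosen after seeing the data. The fits were tested on simulated data in which the changes were larger than those called within the retina. That test therefore does not bear on changes as small as those. Total counts of 15825059 to 24908314 a library and the number of mice set the precision. The SE values come from edgeR's fits and include variation between mice, while floors cover counting error only. Correlations over 12 eye cups used 100000 resamples in scipy 1.17.1. The libraries of a group are labelled as separate mice.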

Additional observations from a re-analysis of the deposited data

Results flagged for a closer look

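The response of Ndufv1 to dox in the neural retina differed between genotypes by 0.43 on the log2 scale (SE 0.08, edgeR adjusted p = 0.00315), by the test of genotype with dox over 12 retinas. It stood out because the change with dox in PRDM13-OE mice, from 175 ± 10.1 to 224.5 ± 4.05 CPM, was not matched in wildtype mice, from 180 ± 4.28 to 170.5 ± 1.82 CPM (SD, n = 3 each). With each of the 12 retinas left out in turn Ndufv1 remained past the threshold. The 3 PRDM13-OE retinas with dox also stood apart from all other retinas in tissue markers. Rod markers were at 51543 to 57896 CPM there and at least 69205 CPM elsewhere, and cone markers at 678 to 750 and at least 1176 CPM. Red blood cell markers were at 0.709 to 1.18 and at least 21.6 CPM. The part of cell makeup and blood in this response was not tested.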

How the results depend on the processing

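The retina comparison of PRDM13-OE with wildtype mice with dox gave 9 members higher and 0 lower. Library size alone gave 31 (2175 of all genes higher and 1007 lower), all 12 libraries in one fit 5, the lens covariate 2, leaving out wildtype retinas 1 and 2 with dox (added after seeing the data), with 1 wildtype retina left, 4, and a log2-fold change past 1 as well 0. Leaving out a retina at a time gave 3 to 8 higher and 0 to 1 lower. No count filter and robust fitting each gave 1 lower, Cox8b. Between PRDM13-OE with and without dox, 2 higher became 0 with a log2-fold change past 1 as well and 1 to 3 leaving out a retina at a time, and lower became 1 without a count filter and 0 to 1 leaving out a retina at a time. In wildtype retinas, no count filter gave 1 higher. The interaction in the retina had 1 higher, 2 without a count filter and 0 with a log2-fold change past 1 as well, and 1 lower without a count filter. In eye cups, PRDM13-OE against wildtype with dox gave 1 higher with DESeq2 and 0 to 4 leaving out an eye cup at a time. Wildtype eye cups with against without dox gave 52 lower with DESeq2, 10 with library size alone, 34 without a count filter and 0 to 33 leaving out an eye cup at a time. Retina against eye cup gave 8 higher and 73 lower. Untreated wildtype mice alone gave 2 higher and 70 lower, and a log2-fold change past 1 as well gave 1 higher and 47 lower. The replicate block gave 9 higher in the retina comparison of mice with dox, and Uqcrb then had an edgeR adjusted p of 0.0578. The cause of these differences was not tested. None of the calls on named members changed direction under the alternatives run, with 269 values on the same side of the threshold and 52 that no longer passed. Named members that did not pass are outside these counts. In the first comparison library size alone moved the median over all genes from 0.01 to 0.09, more than the distance of Sdha from 0. Library size alone moved the median over all genes from −0.05 to 0.13 between wildtype eye cups with and without dox and from 0.04 to 0.21 between tissues. The number of mice, 3 a group, limits what can be called.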
